A study of Mus musculus with 6 samples.

Results

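The 10 genes described here encode enzymes and receptors of the prostaglandin pathway: the phospholipase Pla2g4a, the cyclooxygenases Ptgs1 and Ptgs2, the prostaglandin E synthases Ptges, Ptges2 and Ptges3, the catabolic enzyme Hpgd and the receptors Ptger1, Ptger2 and Ptger4. They were 10 of the 54446 genes in the expression table. They were chosen by pathway membership, and the pathway was chosen because Ptgs2 stood among the genes that were most increased by cisplatin. The Ptgs2 values in control and cisplatin libraries are therefore given as a description, without a test. The cells were TRAMP-C2, an established prostate cancer line of a male C57BL/6 TRAMP mouse, a strain in which SV40 T antigen is driven in prostate epithelium by a probasin promoter. Cultures were left without drug (control), given 2 µM oxaliplatin or given 2 µM cisplatin, all for 24 h, and each group had 2 poly(A) RNA-seq libraries. Both drugs are platinum compounds that form DNA crosslinks. Oxaliplatin carries diaminocyclohexane and oxalate ligands where cisplatin carries ammine and chloride ligands. The labels do not say that the 2 libraries of a group came from separate cultures, so p-values measure only the spread between these libraries, which may be technical.

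Prostaglandins are lipid mediators made from arachidonic acid. The cytosolic phospholipase encoded by Pla2g4a frees arachidonic acid from membranes, a cyclooxygenase turns it into prostaglandin H2, and terminal synthases turn that into prostaglandin E2 and other products. Prostaglandin E2 acts on the EP receptors, of which EP2 and EP4 raise cyclic AMP, and it is known in tumours as a suppressor of T cell and natural killer cell activity. Ptgs1 is the constitutive cyclooxygenase gene of many tissues, whereas Ptgs2 is an inducible one with a short-lived mRNA.

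The sequences of the 2 cyclooxygenase genes are shown first, because the results turn on the contrast between them. Each promoter window is from RefSeq (GRCm38.p6), runs 5′ to 3′ on the gene's strand, and covers 250 bases before and 50 bases after the annotated start. Capitals mark the motifs that were found. The Ptgs2 window is chr1:150099781-150100080 on the plus strand and the Ptgs1 window is chr2:36230176-36230475 on the plus strand.
Ptgs2 promoter: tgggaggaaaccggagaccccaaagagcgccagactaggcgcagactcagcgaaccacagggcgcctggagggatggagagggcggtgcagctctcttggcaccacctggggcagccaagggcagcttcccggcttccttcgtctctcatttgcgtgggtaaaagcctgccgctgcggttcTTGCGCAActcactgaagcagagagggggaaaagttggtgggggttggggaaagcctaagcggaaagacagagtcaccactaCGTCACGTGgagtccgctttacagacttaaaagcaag
Ptgs1 promoter: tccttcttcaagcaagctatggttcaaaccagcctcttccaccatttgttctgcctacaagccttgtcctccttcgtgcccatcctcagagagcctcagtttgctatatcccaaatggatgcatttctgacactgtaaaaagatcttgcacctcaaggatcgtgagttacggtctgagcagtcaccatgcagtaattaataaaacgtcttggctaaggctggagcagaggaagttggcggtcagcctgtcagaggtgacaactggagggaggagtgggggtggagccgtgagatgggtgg

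The letters searched, on both strands, were the cyclic AMP response element TGACGTCA and its shorter core CGTCA, the AP-1 motif TGANTCA, the NF-kappaB motif GGNNNTTCC, the E-box CACGTG, the C/EBP motif TTGCNNAA and the TATA box TATAAA. The Ptgs2 window held a C/EBP motif at positions -69 to -62 from the annotated start. It also held a response element core at positions 14 to 18 that overlapped an E-box at positions 17 to 22. The Ptgs1 window held none of the 7. Whether transcription began at the annotated starts in these cells was not tested. Bases outside the windows were not searched, so a motif missing here may lie nearby. Of 32851 promoter windows of this length, 10.8% held the C/EBP motif, 20.81% the core and 7.15% the E-box, so that each is common. The other searched letters were in 1.79% (the whole response element), 7.81% (AP-1), 18.48% (NF-kappaB) and 13.62% (TATA box) of windows. A window was found for 9 of the 10 genes, and the other members had at most 1 motif each: an E-box in Ptges2, a core in Ptges3, a TATA box in Hpgd and in 1 of the 2 Pla2g4a windows, and a C/EBP motif in Ptger2.

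The cyclooxygenase genes also differed at their 3′ ends, where AUUUA pentamers mark many short-lived mRNAs. After the stop codon the longest annotated Ptgs2 transcript had 14 ATTTA pentamers in 2445 bases, and 3.45% of 18085 genes had as many. That share is not adjusted for length. The median gene had 2 pentamers. The longest Ptgs1 transcript had 0 pentamers in 921 bases. Bases 12 to 41 of the Ptgs2 3′ end are shown for their 4 pentamers, which are in capitals and of which 3 overlap in a row.
Ptgs2 3′ end: ccatATTTATTTATTTAtgtgaagaATTTA

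Among the other members the counts were 6 in Ptger2, 5 in Ptger4, 4 each in Hpgd, Pla2g4a, Ptges2 and Ptges3, and 0 in Ptges and Ptger1. Per kb of 3′ end Pla2g4a, with 443 bases, was denser (9.03) than Ptgs2 (5.73). Hpgd followed with 4.77, and the remaining members were lower. These matches are descriptions of letters, not of binding.

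Libraries held 21345312 to 24041767 counts, so that 3 counts lay between 0.125 and 0.141 CPM, which are counts relative to the total of a library, a limit that covers counting error only. Of 11 prostate epithelial markers, 6, among them Krt5, Epcam, Hoxb13, Pbsn and Foxa1, had at most 3 counts in every library, whereas Krt8, Krt18, Krt14 and Cdh1 were among those detected. The summed level of the epithelial markers was 18.2 to 20.6 CPM per kb of exon, and that of 8 mesenchymal markers, led by Fn1 and Vim, was 1650 to 1910. Of 10 leukocyte markers, 7, among them Ptprc, Adgre1 and Tyrobp, had at most 3 counts everywhere, and the summed level of the list was 8.71 to 9.64 in control, 11.6 to 11.7 in oxaliplatin and 10.0 to 10.4 in cisplatin libraries. Of 5 endothelial markers, 3 had at most 3 counts everywhere and the list summed to 0.144 to 0.386. The part of these marker levels in the results below was not tested.

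All 10 genes were detected and all passed the filter of 10 counts in 2 libraries, but their levels covered a wide range. Per length, Ptges3 was highest with 85.7 CPM per kb of exon in control cells (mean of 2 libraries), followed by Ptgs1 with 68.5, Ptgs2 with 11.6, Pla2g4a with 11.5 and Ptges2 with 4.95. Ptger1 (1.303), Ptges (0.901), Hpgd (0.445), Ptger4 (0.382) and Ptger2 (0.0928) were low. Ptgs2 and Pla2g4a did not differ beyond the spread of their control libraries in this order. Fewer cells that express a gene and less RNA per cell cannot be told apart in such bulk samples.

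**Figure D1:**
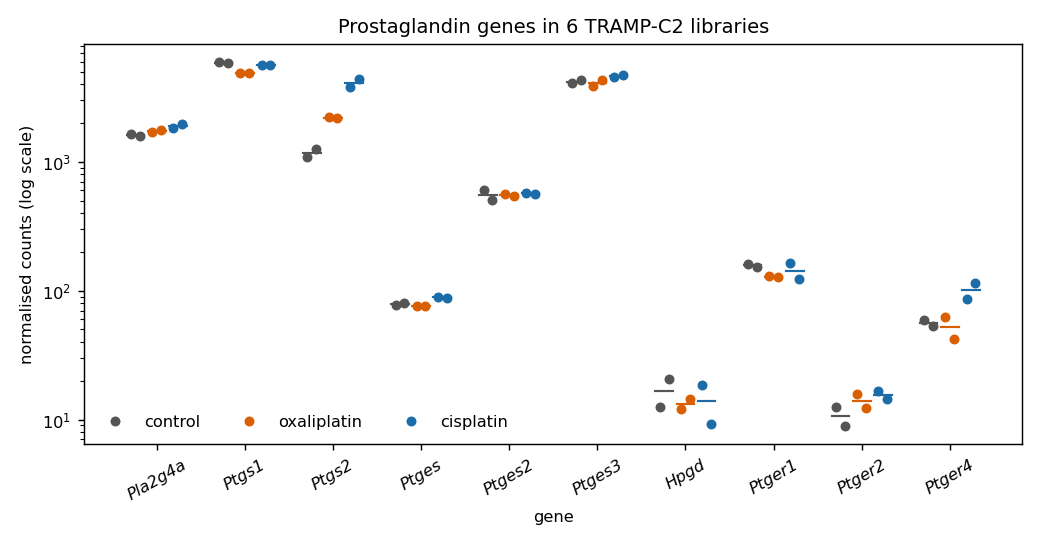
Normalised counts (counts divided by the DESeq2 size factor, log axis) of the 10 prostaglandin genes in the 2 control, 2 oxaliplatin and 2 cisplatin libraries; points are libraries and lines are group means. The Ptgs2 libraries fall into 3 separate steps, at 1100 to 1250 in control, 2177 to 2214 in oxaliplatin and 3788 to 4432 in cisplatin cells, while Ptgs1 stays between 4884 and 5939.

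The genes were examined from substrate release to receptor. Counts were compared with DESeq2 over all 6 libraries, with adjusted p under 0.05 as the threshold for a call. Both drug comparisons share the control libraries, and the comparison of the 2 drugs, at the same dose and time, shares libraries with each. It is the only pair of compounds that was compared.

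Pla2g4a (ENSMUSG00000056220, chromosome 1, 149829618 to 149961290, minus strand) opens the pathway. Its normalised counts were 1655 and 1598 in control, 1707 and 1781 in oxaliplatin and 1819 and 1957 in cisplatin libraries. The 3 groups did not overlap, and the steps between them were small. The log2 fold change was 0.10 ± 0.07 (SE, n = 2 against 2) with oxaliplatin (DESeq2 adjusted p = 0.364), which did not pass. With cisplatin it was 0.22 ± 0.07, a description since this contrast chose the pathway. Oxaliplatin against cisplatin gave -0.11 (95% Wald interval -0.26 to 0.03, DESeq2 adjusted p = 0.273), so that a difference between the drugs was not detectable. Pla2g4a lies 138.7 kb before Ptgs2 on chromosome 1, with 3 annotated genes between them, 0 of them protein-coding.

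Ptgs2 (ENSMUSG00000032487, chromosome 1, 150100031 to 150108227, plus strand) is the inducible cyclooxygenase gene, whose promoter and pentamers are shown above. Its normalised counts were 1100 and 1250 in control, 2214 and 2177 in oxaliplatin and 3788 and 4432 in cisplatin libraries. The groups were separate, with oxaliplatin between the others. Group means were 1175 ± 106, 2195 ± 26.5 and 4110 ± 455 (SD, n = 2 each). The ratio of means to control was 1.87 with oxaliplatin and 3.50 with cisplatin, and the oxaliplatin mean was 0.534 of the cisplatin mean. On the log2 scale these were 0.90 ± 0.09, 1.81 ± 0.09 and -0.90 ± 0.09 (SE). No interval is given here, because all of them use control or cisplatin values that chose the pathway. Ranked from the highest fold change among 14956 tested genes, Ptgs2 was 88th with cisplatin, the contrast that chose it, and 304th with oxaliplatin.

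Ptgs1 (ENSMUSG00000047250, chromosome 2, 36230426 to 36252272, plus strand), the other cyclooxygenase gene, moved the other way with oxaliplatin. Its normalised counts were 5939 and 5832 in control, 4900 and 4884 in oxaliplatin and 5668 and 5644 in cisplatin libraries. The oxaliplatin libraries were below all others and the cisplatin libraries lay just under the control libraries. Ptgs1 fell with oxaliplatin (log2 fold change -0.27 ± 0.04 SE, n = 2 against 2, DESeq2 adjusted p = 1.332e-08) and was lower with oxaliplatin than with cisplatin (-0.21 ± 0.04, 95% Wald interval -0.29 to -0.13, DESeq2 adjusted p = 1.635e-05). Both calls held in all 13 alternative analyses, with adjusted p up to 0.00197 and 0.0258. With cisplatin the log2 fold change was -0.06 ± 0.04.

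The balance of the cyclooxygenase transcripts was computed per exon length in each library. The ratio of Ptgs2 to Ptgs1 was 0.157 and 0.182 in control, 0.383 and 0.378 in oxaliplatin and 0.567 and 0.666 in cisplatin libraries. Ptgs1 remained the more abundant of the pair in every library, but its share of their sum was 86.4% and 84.6% in control, 72.3% and 72.6% in oxaliplatin and 63.8% and 60.0% in cisplatin cells. The ratio contains the Ptgs2 values that chose the pathway and is a description.

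**Figure D2:**
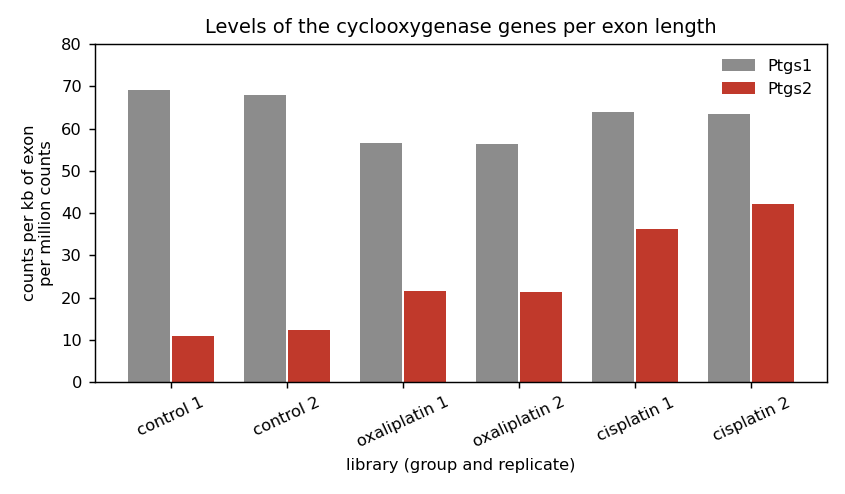
Levels of Ptgs1 (grey) and Ptgs2 (red) in CPM per kb of exon, 1 bar for each of the 6 libraries, with no error bars since a bar is a single library. Ptgs2 is 10.8 to 12.4 in control, 21.3 to 21.7 in oxaliplatin and 36.2 to 42.2 in cisplatin libraries, and Ptgs1 is above it in all 6.

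The 3 prostaglandin E synthase genes lacked a change of the size seen for Ptgs2. Ptges (ENSMUSG00000050737, chromosome 2, 30889471 to 30929863, minus strand) encodes the inducible microsomal synthase that is known to be coupled to the product of Ptgs2. Its normalised counts were 76.8 and 79.8 in control, 76.1 and 76.8 in oxaliplatin and 89.2 and 88.0 in cisplatin libraries. The cisplatin libraries were the highest, but at this depth the intervals were wide. The log2 fold change was -0.03 ± 0.30 (SE, DESeq2 adjusted p = 0.957) with oxaliplatin, 0.18 ± 0.29 with cisplatin, and -0.21 between the drugs (95% Wald interval -0.79 to 0.36, DESeq2 adjusted p = 0.662).

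Ptges2 (ENSMUSG00000026820, chromosome 2, 32395896 to 32405772, plus strand), a second microsomal synthase gene, had 600 and 508 normalised counts in control, 561 and 541 in oxaliplatin and 574 and 566 in cisplatin libraries. All treated libraries lay between the control libraries. Its log2 fold change was -0.01 ± 0.13 with oxaliplatin (DESeq2 adjusted p = 0.981), 0.04 ± 0.13 with cisplatin and -0.05 between the drugs (95% Wald interval -0.30 to 0.20, DESeq2 adjusted p = 0.836).

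Ptges3 (ENSMUSG00000071072, chromosome 10, 128058954 to 128077272, plus strand) encodes the cytosolic synthase, which is also the Hsp90 co-chaperone p23. Its normalised counts were 4121 and 4286 in control, 3862 and 4282 in oxaliplatin and 4574 and 4701 in cisplatin libraries. The cisplatin libraries were above the others, and the oxaliplatin and control libraries overlapped. Against control its log2 fold change was -0.05 ± 0.06 with oxaliplatin (DESeq2 adjusted p = 0.660) and 0.14 ± 0.06 with cisplatin. Ptges3 was lower with oxaliplatin than with cisplatin by DESeq2 (-0.19 ± 0.06, 95% Wald interval -0.31 to -0.07, adjusted p = 0.0121). That call was lost without oxaliplatin replicate 1 (DESeq2 adjusted p = 0.400), without cisplatin replicate 1 (0.0921) and without cisplatin replicate 2 (0.201).

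Hpgd (ENSMUSG00000031613, chromosome 8, 56294585 to 56321043, plus strand) encodes the dehydrogenase that inactivates prostaglandins. It was near the limit of detection with 12 and 21 counts in control, 13 and 14 in oxaliplatin and 19 and 9 in cisplatin libraries. The groups overlapped. The log2 fold changes were -0.33 ± 0.74 with oxaliplatin, -0.25 ± 0.74 with cisplatin and -0.08 ± 0.75 between the drugs, and independent filtering gave it no adjusted p.

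Of the 3 receptor genes, Ptger4 was called between the drugs, though in few of the alternatives. Ptger4 (ENSMUSG00000039942, chromosome 15, 5206661 to 5244187, minus strand) encodes EP4, which couples to cyclic AMP. Its normalised counts were 59.1 and 53.2 in control, 62.2 and 42.0 in oxaliplatin and 86.3 and 115.6 in cisplatin libraries. The cisplatin libraries were above all others, and the oxaliplatin libraries lay on either side of the controls. Against control its log2 fold change was -0.10 ± 0.37 with oxaliplatin (DESeq2 adjusted p = 0.887) and 0.85 ± 0.36 with cisplatin. Ptger4 was lower with oxaliplatin than with cisplatin by DESeq2 (-0.95 ± 0.36, 95% Wald interval -1.65 to -0.25, adjusted p = 0.0348). That call held in 5 of 13 alternatives and in none of those without 1 library. The DESeq2 adjusted p was 0.0846 without control replicate 1, 0.0867 without control replicate 2 and 0.0591 with no filter on low counts, and 5 alternatives, among them those without an oxaliplatin or a cisplatin library, gave none. Ptger4 shares 1015 exon bases with a pseudogene and 82 with Ttc33 on the other strand.

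Ptger1 (ENSMUSG00000019464, chromosome 8, 83666678 to 83672753, plus strand) encodes EP1, which acts through calcium. It had 161 and 154 normalised counts in control, 129 and 127 in oxaliplatin and 163 and 123 in cisplatin libraries. The oxaliplatin libraries were below the controls and inside the cisplatin range. The log2 fold change was -0.30 ± 0.24 with oxaliplatin (DESeq2 adjusted p = 0.416), -0.14 ± 0.24 with cisplatin and -0.16 between the drugs (95% Wald interval -0.63 to 0.32, DESeq2 adjusted p = 0.701). Its counts are uncertain, because its annotated exons are partly shared and the sources used here do not say whether counting used strand.

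Ptger2 (ENSMUSG00000037759, chromosome 14, 44988195 to 45003820, plus strand) encodes EP2, the other receptor that raises cyclic AMP. It had 12 and 9 counts in control, 17 and 12 in oxaliplatin and 17 and 14 in cisplatin libraries. The log2 fold changes of 0.40 ± 0.74, 0.54 ± 0.74 and -0.14 ± 0.72 (oxaliplatin, cisplatin and oxaliplatin against cisplatin) were smaller than their SE, and it received no adjusted p. The fourth EP receptor gene, Ptger3, had at most 1 count in any library.

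**Figure D3:**
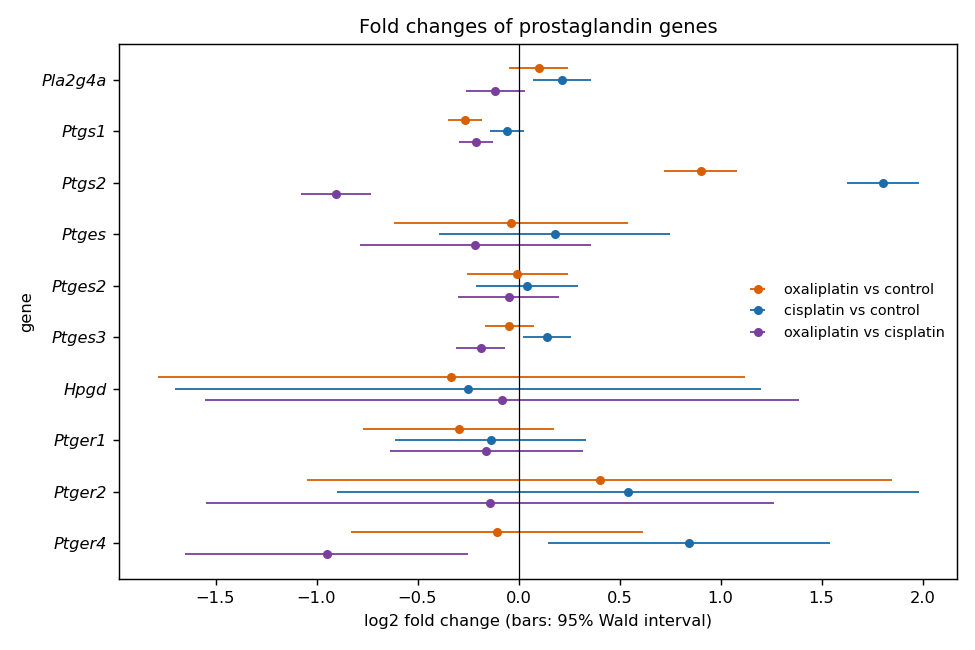
DESeq2 log2 fold changes of the 10 prostaglandin genes with 95% Wald intervals, for oxaliplatin against control (orange), cisplatin against control (blue) and oxaliplatin against cisplatin (purple). The intervals of Ptgs1 are below 0 in both comparisons that involve oxaliplatin, and those of Hpgd and Ptger2 span more than 2 log2 units. Ptgs2, whose rise with cisplatin chose the pathway, is shown as a description, and its intervals are not a test.

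Of the 10 genes 8 received an adjusted p, and Ptgs2 enters the counts as a description. In all, 2 were called with oxaliplatin against control, Ptgs2 higher and Ptgs1 lower, where 20.2% of all tested genes were called (10.7% higher and 9.5% lower). The share is that of the background. With cisplatin 2 were past the threshold, Ptgs2 and Pla2g4a, both higher, where 28.1% of all genes were (15.7% higher and 12.4% lower), and nothing is read from that count because the contrast chose the pathway. Pla2g4a dropped out of it in each of the 6 analyses that left out 1 library and with scaling to the total count, where Ptgs1 was past the threshold instead, as lower with cisplatin (log2 fold change -0.11 against -0.06 with DESeq2's size factors). Between the drugs 4 were called, Ptgs1, Ptgs2, Ptges3 and Ptger4, all lower with oxaliplatin. Of all genes 19.9% were called (8.62% higher and 11.3% lower). The cisplatin values of Ptgs2 chose the pathway, so its place in this count is a description. The count between the drugs was 2 without oxaliplatin replicate 1, without cisplatin replicate 1 or without cisplatin replicate 2. With scaling to the total count the calls over all genes were 1824 higher and 2376 lower with cisplatin, against 2355 and 1848 with DESeq2's size factors, and 1622 higher and 1364 lower between the drugs, against 1289 and 1688. The median log2 fold change of the 10 genes was -0.04 with oxaliplatin, 0.16 with cisplatin and -0.17 between the drugs, and the median over all tested genes was -0.00 in each.

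The other branches from prostaglandin H2 were represented chiefly by the prostacyclin synthase gene. In the list of other synthases and catabolic enzymes 13 genes were in the table and 9 passed the filter. With oxaliplatin 2 rose and 2 fell, and between the drugs 1 was higher and 2 were lower with oxaliplatin. Median log2 fold changes were 0.04 and -0.07. With cisplatin 2 were higher and 1 lower, with a median of 0.05. The shares called among all tested genes, 20.2% with oxaliplatin, 28.1% with cisplatin and 19.9% between the drugs, are the background for this and each later list.

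Ptgis, the prostacyclin synthase, had 2938 and 2714 normalised counts in control, 3765 and 3754 in oxaliplatin and 3392 and 3470 in cisplatin libraries. All treated libraries were above the controls and oxaliplatin was the highest. Ptgis rose with oxaliplatin (log2 fold change 0.41 ± 0.06 SE, DESeq2 adjusted p = 8.778e-11) and was 0.28 ± 0.06 with cisplatin, in the opposite order of the drugs to Ptgs2, but the difference between the drugs did not pass (0.13 ± 0.06, DESeq2 adjusted p = 0.0810). Akr1b3, an aldo-keto reductase with prostaglandin F synthase activity, rose with oxaliplatin (0.26 ± 0.05, DESeq2 adjusted p = 2.182e-05) and was 0.33 ± 0.05 with cisplatin. These rises held in all 13 alternatives.

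Among the reductases that degrade or convert prostaglandins, Cbr1, a carbonyl reductase, fell with oxaliplatin (-0.35 ± 0.10, DESeq2 adjusted p = 0.00351) and was lower than with cisplatin (-0.38 ± 0.10, DESeq2 adjusted p = 0.000994). Ptgr1, a prostaglandin reductase, was lower with oxaliplatin than with cisplatin (-0.43 ± 0.11, DESeq2 adjusted p = 0.00114). Zadh2, the third prostaglandin reductase, fell with oxaliplatin (-0.22 ± 0.07, DESeq2 adjusted p = 0.0125), was -0.52 ± 0.07 with cisplatin, and was therefore higher with oxaliplatin than with cisplatin (0.30 ± 0.07, DESeq2 adjusted p = 0.000339). The fall of Zadh2 was lost without any 1 of the 6 libraries, and the other calls were lost without some of them. The highest DESeq2 adjusted p, in each case without oxaliplatin replicate 1, was 0.131 for Cbr1 and 0.261 for Zadh2 against control. Between the drugs it was 0.127 for Cbr1 and 0.146 for Ptgr1 without cisplatin replicate 1, and 0.0766 for Zadh2 without oxaliplatin replicate 2. Cbr2 (36.8 to 60.2 normalised counts), Cbr3 (120.2 to 187) and Ptgr2 (641 to 734) did not pass in these comparisons, and Fam213b (7.88 to 20.8) received no adjusted p. The prostaglandin D synthase genes Ptgds and Hpgds, the thromboxane synthase gene Tbxas1 and Akr1c18 had at most 3 counts in any library.

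Of 9 other prostanoid receptor and transporter genes, 6 passed the filter. The 2 genes called with oxaliplatin both fell (median log2 fold change of the list -0.54), with cisplatin 1 was higher and 2 lower (median -0.23), and the 1 gene called between the drugs was lower with oxaliplatin (median -0.27). Ptgfr, the receptor of prostaglandin F2α, had 173 and 205 normalised counts in control, 104 and 119 in oxaliplatin and 73.5 and 89.0 in cisplatin libraries. Its 3 groups did not overlap. It fell with oxaliplatin (-0.77 ± 0.25, DESeq2 adjusted p = 0.0120), was -1.22 ± 0.26 with cisplatin, and did not pass between the drugs (0.45 ± 0.26, DESeq2 adjusted p = 0.214). The fall passed in 7 of the 9 alternatives that gave it an adjusted p, and was lost without cisplatin replicate 2 (DESeq2 adjusted p = 0.0524). Ptgfrn, a membrane protein that inhibits that receptor, also fell (-0.32 ± 0.05, DESeq2 adjusted p = 1.585e-07) and was -0.36 ± 0.06 with cisplatin.

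Slco2a1, the transporter that takes up prostaglandins, had 1131 and 1086 normalised counts in control, 1139 and 1116 in oxaliplatin and 1396 and 1518 in cisplatin libraries. Only the cisplatin libraries stood apart. Its log2 fold change was 0.03 ± 0.09 with oxaliplatin (DESeq2 adjusted p = 0.883), 0.39 ± 0.09 with cisplatin and -0.37 ± 0.09 between the drugs (DESeq2 adjusted p = 0.000163). The difference between the drugs was lost without cisplatin replicate 2 (DESeq2 adjusted p = 0.0852). The exporter gene Abcc4 (697 to 831 normalised counts) did not pass, the prostacyclin receptor gene Ptgir (8.36 to 21.7) received no adjusted p in any comparison, and the thromboxane receptor gene Tbxa2r (9.21 to 32.5) received none in those with oxaliplatin. Of the prostaglandin D receptor genes, Ptgdr had 0 counts everywhere and Ptgdr2 had 3 to 10.

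**Figure D4:**
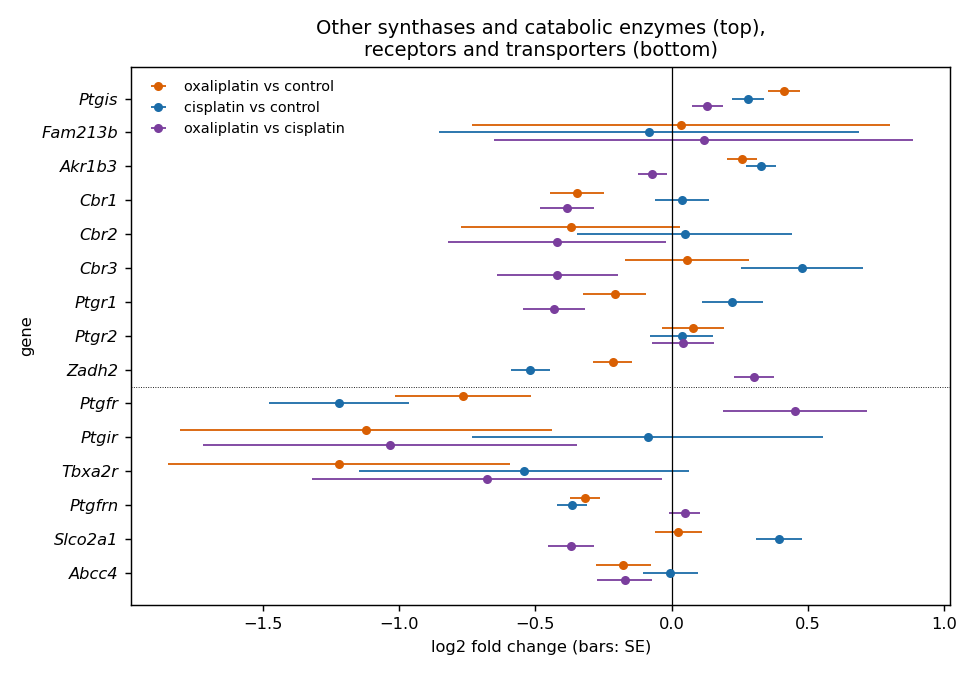
DESeq2 log2 fold changes with SE (n = 2 against 2) of the other synthase and catabolic genes (top) and the other receptor and transporter genes (bottom) that passed the filter, in the 3 comparisons. Ptgis and Akr1b3 lie above 0 with both drugs, Ptgfr and Ptgfrn below 0 with both, and Slco2a1 is at 0.03 with oxaliplatin and 0.39 with cisplatin.

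Among 26 genes of phospholipases and arachidonate handling, 17 passed the filter. With oxaliplatin 3 rose (Anxa1, Acsl4 and Pla2g15) and 3 fell (Pla2g6, Lpcat3 and Acsl3), with a median log2 fold change of 0.09. With cisplatin 6 were higher and 1 lower (median 0.16), and both of the genes called between the drugs were lower with oxaliplatin (median -0.09). Pla2g6, a calcium-independent phospholipase, had 922.5 and 951 normalised counts in control, 694 and 680 in oxaliplatin and 985 and 997 in cisplatin libraries. The oxaliplatin libraries were below all others. It fell with oxaliplatin (-0.45 ± 0.09, DESeq2 adjusted p = 2.818e-05) and was lower than with cisplatin (-0.53 ± 0.09, DESeq2 adjusted p = 4.344e-07), both in all 13 alternatives. Anxa1, which encodes the phospholipase inhibitor annexin, rose by 0.22 ± 0.03 (DESeq2 adjusted p = 8.741e-11). Lpcat3, which returns arachidonate to phospholipids, fell (-0.31 ± 0.07, DESeq2 adjusted p = 2.232e-05).

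Acsl3, an acyl-CoA synthetase, fell with oxaliplatin (-0.36 ± 0.08, DESeq2 adjusted p = 0.000103), a call that was lost without oxaliplatin replicate 1 (0.0724). Its difference from cisplatin (-0.23 ± 0.08, DESeq2 adjusted p = 0.0209) passed in 5 of 13 alternatives, with p up to 0.397 without oxaliplatin replicate 1. The rises of Acsl4 (0.21 ± 0.07, DESeq2 adjusted p = 0.0129) and Pla2g15 (0.31 ± 0.10, DESeq2 adjusted p = 0.0132) passed in 6 of 13 and were lost whenever 1 library was left out, with DESeq2 adjusted p up to 0.294 and 0.277. In the lipoxygenase and leukotriene branch 4 of 16 genes passed the filter, and Alox5, the lipoxygenase of leukotriene synthesis, had 0 counts everywhere. None of them was called with either drug against control (medians -0.19 and 0.01; at an unadjusted p under 0.05 the counts were 2 with oxaliplatin and 0 with cisplatin, and edgeR called 2 and 0). Lta4h, the leukotriene A4 hydrolase gene, was -0.16 ± 0.07 with oxaliplatin (DESeq2 adjusted p = 0.0707). Ephx1, an epoxide hydrolase gene, was lower with oxaliplatin than with cisplatin (-0.29 ± 0.11, DESeq2 adjusted p = 0.0387, median of the 4 genes -0.22), but this passed in 3 of 13 alternatives, with p up to 0.522 without oxaliplatin replicate 1.

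Transcription factors and RNA-binding proteins known to act on Ptgs2 were listed without regard to their direction of action, and all 30 passed the filter. With oxaliplatin 12 rose and 2 fell (median log2 fold change 0.16), with cisplatin 15 were higher and 5 lower (median 0.20), and between the drugs 6 were higher and 7 lower with oxaliplatin (median -0.06). Over all tested genes 20.2%, 28.1% and 19.9% were called in these comparisons. Jun had 626 and 551 normalised counts in control, 940 and 976 in oxaliplatin and 1393 and 1473 in cisplatin libraries. Junb had 801 and 676, 1093 and 1110, and 1737 and 1792 in the same order. In both, as in Ptgs2, the oxaliplatin libraries lay between the other groups. The same order was seen in other genes of the list, among them Nfkb2 and Zfp36l2. Jun rose by 0.70 ± 0.10 with oxaliplatin (DESeq2 adjusted p = 1.81e-10) and Junb by 0.58 ± 0.10 (DESeq2 adjusted p = 1.342e-07). Between the drugs they were -0.58 ± 0.10 (DESeq2 adjusted p = 5.054e-08) and -0.68 ± 0.10 (DESeq2 adjusted p = 4.158e-11), and all 4 calls held in all 13 alternatives.

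The AP-1 genes Fosl1 and Fosl2 had a different order. Fosl1 had 540 and 623 normalised counts in control, 1076 and 999 in oxaliplatin and 1038 and 1095 in cisplatin libraries, so that the drug groups overlapped. It rose with oxaliplatin (0.84 ± 0.11, DESeq2 adjusted p = 7.421e-13) and did not pass between the drugs (-0.04 ± 0.10, DESeq2 adjusted p = 0.839), although 1163 of its 2033 exon bases are shared with Ccdc85b on the other strand. Fosl2 rose with oxaliplatin (0.45 ± 0.06, DESeq2 adjusted p = 5.296e-14) and was higher than with cisplatin (0.25 ± 0.06, DESeq2 adjusted p = 0.000108; 0.0610 without oxaliplatin replicate 2 and 0.0586 without cisplatin replicate 1). Nfkb2, an NF-kappaB subunit gene, rose with oxaliplatin (0.55 ± 0.06, DESeq2 adjusted p = 1.949e-16) and was lower than with cisplatin (-0.25 ± 0.06, DESeq2 adjusted p = 0.000317), the latter lost without oxaliplatin replicate 2 (0.107), cisplatin replicate 1 (0.0545) or cisplatin replicate 2 (0.0579). Zfp36l2, whose protein binds AU-rich elements and destabilises mRNA, was lower with oxaliplatin than with cisplatin (-0.37 ± 0.06, DESeq2 adjusted p = 1.841e-09) in all 13 alternatives. Its rise against control (0.21 ± 0.06, DESeq2 adjusted p = 0.00290) was lost without control replicate 2 (0.118), oxaliplatin replicate 1 (0.176) or oxaliplatin replicate 2 (0.0797).

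Of 22 genes of the cyclic AMP response downstream of EP receptors, 21 passed the filter. With oxaliplatin 4 rose and 2 fell, with cisplatin 3 were higher and 1 lower, and the 4 genes called between the drugs were lower with oxaliplatin. The medians were 0.00, 0.01 and -0.06, and the shares over all tested genes were 20.2%, 28.1% and 19.9%. One of the 4 rises, that of Atf3, a stress-induced factor gene (0.43 ± 0.17, DESeq2 adjusted p = 0.0488), passed in 2 of 13 alternatives, with DESeq2 adjusted p up to 0.408 without oxaliplatin replicate 2. Ereg, an EGF receptor ligand, had 104 and 137 normalised counts in control, 308 and 289 in oxaliplatin and 309.8 and 402 in cisplatin libraries, and rose with oxaliplatin by 1.31 ± 0.22 (DESeq2 adjusted p = 3.66e-08), in all 13 alternatives. Its difference between the drugs did not pass (-0.25 ± 0.20, DESeq2 adjusted p = 0.402). Vegfa, an angiogenic factor gene, fell with oxaliplatin (-0.31 ± 0.09, DESeq2 adjusted p = 0.00214) and was lower than with cisplatin (-0.29 ± 0.09, DESeq2 adjusted p = 0.00490). The first call was lost when any control or oxaliplatin library was left out (0.0528 to 0.157) and the second when any oxaliplatin or cisplatin library was (0.0529 to 0.237). Between the drugs Atf3 was -0.58 ± 0.16 (DESeq2 adjusted p = 0.00293) and Prkaca, a protein kinase A catalytic subunit gene, was -0.19 ± 0.05 (DESeq2 adjusted p = 0.00146). Both were lost when any library of either drug was left out (up to 0.189 and 0.104). The fall of the adenylyl cyclase gene Adcy6 with oxaliplatin (-0.21 ± 0.07, DESeq2 adjusted p = 0.0179) was lost in every analysis that left out 1 library (up to 0.382).

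Over these 6 lists together, 87 of 116 genes passed the filter. With oxaliplatin 21 rose and 11 fell, with cisplatin 27 were higher and 10 lower, and between the drugs 7 were higher and 17 lower with oxaliplatin, with median log2 fold changes of 0.04, 0.09 and -0.09. The shares called over all tested genes were 20.2%, 28.1% and 19.9%.

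The genes whose pattern was most like that of Ptgs2 were found among 10730 genes with a mean of at least 100 normalised counts. Likeness was the Euclidean distance between log2(normalised count + 1) values, centred on each gene's mean over the 6 libraries. The 5 closest were Slc16a6, a monocarboxylate transporter family gene (distance 0.323, Pearson r 0.98), Ier3, an immediate early response gene (0.387, 0.98), Tnfaip3, which encodes the NF-kappaB inhibitor A20 (0.420, 0.98), Dusp4, a MAP kinase phosphatase gene (0.436, 0.996), and Rassf1, a Ras association domain gene (0.486, 0.96). The median distance of all genes was 1.82. The points are 6 libraries in 3 groups, so the correlations carry no p. Without cisplatin replicate 2, 2 of these 5 stayed among the closest 5, and without any other single library 4 or 5 did. Rassf1 shares 2496 of 5845 exon bases with an antisense gene, and Slc16a6 shares 1052 of 4883 with Amz2 on the other strand.

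In Tnfaip3 the normalised counts were 347 and 388 in control, 784 and 723 in oxaliplatin and 1029 and 1106 in cisplatin libraries. Ier3 had 569 and 594, 869 and 828, and 1738 and 1829 in the same order. Every oxaliplatin library lay between the control and the cisplatin libraries in both, which their choice by likeness to Ptgs2 fixes.

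**Figure D5:**
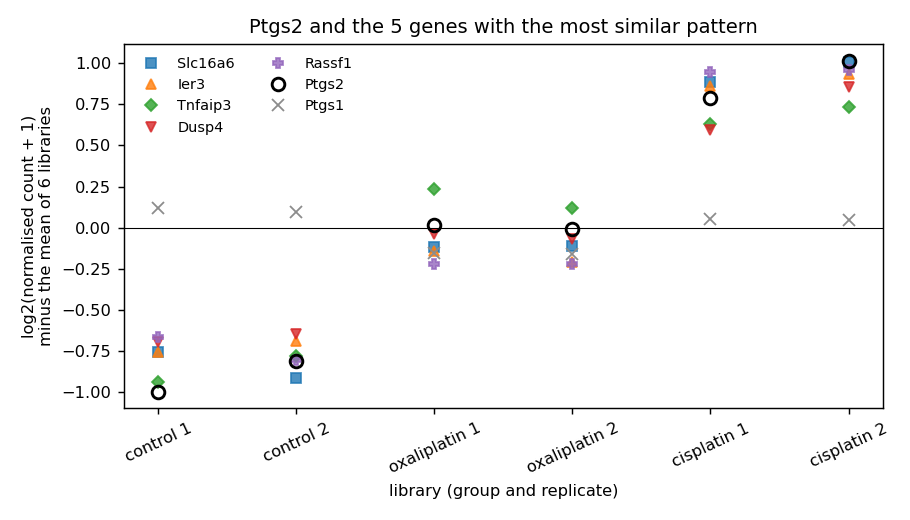
log2(normalised count + 1) minus the gene's mean over the 6 libraries (y axis) by library (x axis), for Ptgs2 (open circles), the 5 genes with the smallest distance to it, and Ptgs1 (crosses). The 5 genes were chosen for following the 3 steps of Ptgs2, and Ptgs1 is lowest in the oxaliplatin libraries.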

How the data were processed

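Poly(A) RNA of TRAMP-C2 cells was sequenced with a stranded mRNA kit in 3 groups of 2 libraries, grouped by the sample labels. The authors deposited expected counts per gene, which are estimates that need not be whole numbers and were unscaled. The submitters' processing notes name STAR 2.5.3a, RSEM 1.3.0 and GRCm38.p6, although a different counter is described in the methods of the study. The annotation and the strand setting are not given in the sources used here. Symbols and positions came from GENCODE M21, in which 54409 of 54446 identifiers matched. RSEM shares out reads between genes that they match, so overlapping genes are uncertain.

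Expected counts were rounded. The 14956 genes that reached 10 counts in 2 or more libraries were tested with DESeq2 1.42.0 (R 4.3.3): 1 fit to all 6 libraries, median-of-ratios size factors (0.964 to 1.08), two-sided Wald tests, Benjamini-Hochberg adjustment over all tested genes, a threshold of 0.05 and independent filtering at 0.1. Fold changes are unshrunken. The steps were tested on simulated data. The 13 alternatives were edgeR's quasi-likelihood test (4.0.16), scaling by TMM, scaling by totals, no count filter, no independent filtering, the replicate number as a block, a fit to the 4 libraries compared, and leaving out each library in turn, where a lone library is assumed to vary like the other groups. Levels per length are CPM per kb of merged exon. Promoter windows came from RefSeq, and 3′ ends from M21 transcripts on GRCm38.

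The members, the lists and the naming rule were chosen with earlier results of these data known, and the lists came from general knowledge. Named are the 10 members, all genes of the lists of other synthases and of other receptors, the 3 genes of each of the 4 other pathway lists that ranked first by adjusted p in either comparison involving oxaliplatin, markers, and the 5 genes most like Ptgs2. The listed names Prxl2b, Ptgr3 and Icer matched no symbol in GENCODE M21, which does not show that those genes were absent. The check of likeness under other scaling and without each library was chosen after seeing the data. Some genes of the marker lists and some overlapping genes are not reported here.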

Additional observations from a re-analysis of the deposited data

How the results depend on the processing

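The number of genes called was 4618 with edgeR and 1958 with a replicate block for oxaliplatin against control (3028 with DESeq2), and 4773 and 1861 between the drugs (2977 with DESeq2). Leaving out 1 library gave 1187 to 2139, 2046 to 2974 (cisplatin against control) and 1160 to 2439 genes. Members called were 2 in every alternative with oxaliplatin, 1 with cisplatin and 2 to 3 between the drugs without 1 library, and pathway genes were 13 to 20, 24 to 30 and 10 to 21. The replicate numbers did not pair the libraries (correlations of deviations 0.01, 0.04 and -0.01), and the replicate block left 19 pathway genes called with oxaliplatin and 1 member with cisplatin. Under the block the calls of Ptgfr (0.0708), Zadh2 (0.0968), Pla2g15, Acsl4, Adcy6 and Atf3 with oxaliplatin and of Acsl3 and Ephx1 between the drugs were lost (DESeq2 adjusted p up to 0.190), and Ptger4 received no adjusted p.

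In the comparisons that involve oxaliplatin, signs turned in 12 log2 fold changes, each without 1 library and none of them called. Sign turns of uncalled genes with cisplatin against control were not counted. Over the analyses without 1 library the values for oxaliplatin against control were -0.1189 to 0.1193 for Ptges2 (also 0.01643 without oxaliplatin replicate 2), -0.1236 to 0.02469 for Ptges3, -0.647 to 0.08589 for Hpgd, -0.4225 to 0.1461 for Ptger4 and -0.00095 to 0.05781 for Slco2a1. Between the drugs they were -0.4971 to 0.5184 for Hpgd, -0.3455 to 0.06006 for Ptger1, -0.3369 to 0.02507 for Ptger2 and -0.09558 to 0.01179 for Fosl1. Under the alternatives other than leaving out 1 library, the other single-gene results, called or not, were unchanged in 747 cases. These alternatives include the fit to the 4 libraries compared. In 17 cases a call was lost, in 10 one was gained, and 2 moved. Without 1 library many more calls were lost. Unchanged meant on the same side of the threshold. For Ptgs2, and for members with cisplatin against control, it meant a log2 fold change within the spread of the replicate libraries. Calls lost there, such as that of Pla2g4a, are therefore not among those counted as lost. Hpgd, Ptger2, Ptger4, Ptges, Ptger1 and Ptgfr received no adjusted p in some alternatives. The cause was not tested. With 9 to 21 counts a library, changes of Hpgd and Ptger2 were not detectable at this depth.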
